A study of Mus musculus with 9 samples.

Results

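The 44 collagen chain genes of the mouse were described in 9 RNA libraries of sorted fetal testis cells, 3 for each population that the labels name Leydig, Interstitial or Sertoli. The genes were taken from a list of symbols, each of which matched 1 identifier among the 38560 genes of the deposited count table, and were ordered by the structure their proteins form. The animals of every group were Sf1-eGFP embryos, whose green reporter is driven by the regulatory region of the gene for steroidogenic factor 1, at 12.5 days post coitum (dpc). Gonads with testis cords were dissociated with trypsin-EDTA or TrypLE, stained with anti-CD31 to remove germ and endothelial cells, and sorted by fluorescence. The sources used here do not give the gates. A library stands for a pool of about 10 sorting days and many litters, not for an animal. The labels' protocols describe 2 separate samples and their mix per population. Replicate C was taken as that mix by elimination, which the labels do not state. Values are shown for A, B and C in that order, while means, SDs and tests used A and B alone (n = 2 per population).

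Collagens are the triple-helical proteins of the extracellular matrix. Fibrillar collagens (types I, II, III, V and XI) build the fibres of connective tissue, type IV collagen builds the sheet-like network of basement membranes, and smaller families bind, anchor or link these structures. In the fetal testis a basement membrane surrounds each cord of Sertoli cells and separates it from the loose interstitium with its mesenchyme, vessels and Leydig cells. A change in the amount of a transcript in a sorted bulk sample cannot be told apart from a change in the number of cells of the type that carries it.

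Between 33.12 and 39.24 M reads per library fell in genes. Levels are given in CPM, the count scaled to the library's reads in genes and normalised between libraries. A count of 0 allows up to 0.0764 to 0.0906 CPM (3 reads, counting error only). The 6 fetal Leydig markers listed, among them the steroidogenic genes Cyp17a1, Cyp11a1 and Star, summed to 236 to 446 normalised CPM in Leydig, 41.8 to 65.0 in Interstitial and 257 to 309 in Sertoli. All 6 were higher in Leydig than in Interstitial, and 0 of 6 were called in Leydig against Sertoli, where the Leydig and Sertoli ranges overlapped. The 9 Sertoli markers summed to 1284 to 1345 CPM in Leydig, 276 to 316 in Interstitial and 3971 to 4234 in Sertoli, with Leydig between the others. The 10 endothelial markers summed to 274 to 310 CPM in Leydig, 274 to 315 in Interstitial and 54.8 to 58.3 in Sertoli. The Interstitial libraries also held the 6 erythroid markers at 6256 to 6987 CPM, against 50.6 to 167 in Leydig and 64.6 to 150 in Sertoli, and the 5 germ cell markers at 891 to 1012 CPM, against 58.3 to 249 in Leydig and 67.2 to 107 in Sertoli. The populations are called by their labels, although the fetal Leydig markers do not set Leydig apart from Sertoli.

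Collagen transcripts took 0.865 to 0.966% of the reads in genes in Leydig, 0.613 to 0.684% in Interstitial and 0.832 to 0.957% in Sertoli. The share was lowest in the 3 Interstitial libraries, and the Leydig and Sertoli ranges overlapped. Fibrillar genes took 40.2, 40.4 and 40.5% of collagen reads in Leydig, 57.3, 55.6 and 57.3% in Interstitial and 19.1, 19.0 and 19.3% in Sertoli. The 3 genes of the basement membrane zone, led by Col18a1, took 10.6 to 12.2% in Leydig, 7.34 to 8.34% in Interstitial and 29.5 to 30.8% in Sertoli. The type IV network took 29.6 to 31.8% in Leydig, 18.6 to 19.7% in Interstitial and 24.5 to 25.1% in Sertoli. FACIT collagens, which sit on the surface of fibres and do not form fibres themselves, took 7.48 to 8.22% in Leydig, 4.21 to 4.53% in Interstitial and 20.8 to 21.1% in Sertoli. In none of these 4 classes did the shares of reads of any 2 populations overlap over the 9 libraries. With reads divided by exon length, the type IV network took 31.4 to 33.8% in Leydig, 21.5 to 22.5% in Interstitial and 22.0 to 22.5% in Sertoli, so that Interstitial and Sertoli overlapped. Per length, fibrillar genes took 30.6 to 30.9% in Leydig, 47.1 to 48.9% in Interstitial and 11.8 to 12.0% in Sertoli, and FACIT genes 12.7 to 13.9%, 5.85 to 6.53% and 32.8 to 33.1%. The basement membrane zone took 11.5 to 13.3% per length in Leydig, 8.67 to 9.74% in Interstitial and 26.9 to 28.2% in Sertoli. The populations kept the same order in these last 3 classes with either measure.

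**Figure D1:**
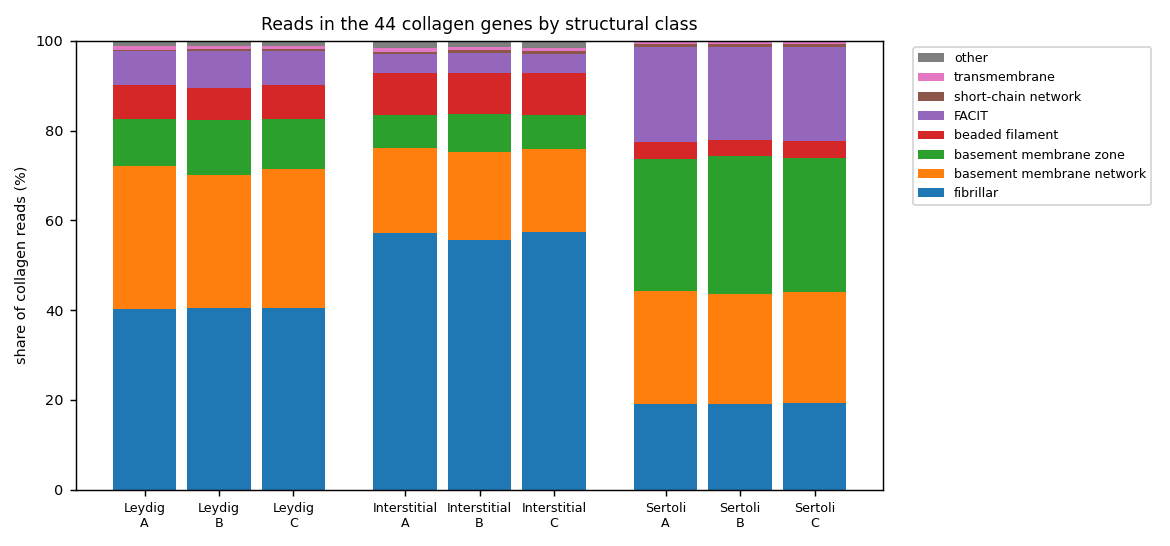
Share of all collagen reads, not divided by length (vertical axis, %), that fell on each structural class in the 9 libraries (horizontal axis, population and replicate), stacked to 100%. Fibrillar genes make up 40.2 to 40.5% of the Leydig bars, 55.6 to 57.3% of the Interstitial bars and 19.0 to 19.3% of the Sertoli bars.

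Reads per gene grow with transcript length, so levels of different genes were set side by side only as normalised CPM per kilobase of exon. On that scale Col4a1, a chain of the basement membrane network, led in Leydig at 246 ± 35.4 CPM per kb (SD, n = 2), followed by the fibrillar chain Col3a1 at 153 ± 12.4 and by Col18a1 at 137 ± 3.79. In Interstitial Col3a1 led at 148 ± 12.1 CPM per kb, ahead of Col4a1 at 94.7 ± 1.61 and Col1a2 at 76.4 ± 5.24. In Sertoli Col18a1 led at 407 ± 41.5 CPM per kb, followed by the FACIT chain Col9a3 at 227 ± 9.68 and Col4a1 at 209 ± 9.32. In Sertoli Col9a3 stood at 220 and 234 CPM per kb and Col4a1 at 203 and 216 in replicates A and B, so that Col9a3 was above Col4a1 in each pool and their ranges did not overlap. With the longest transcript as the length in place of all annotated exons, Col1a2 moved up to 190 ± 22.9 CPM per kb in Leydig and 178 ± 12.2 in Interstitial, the third and second place. Its annotated exons cover 12426 bases and its longest transcript 5348, so the place of this gene depends on the length used.

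**Figure D2:**
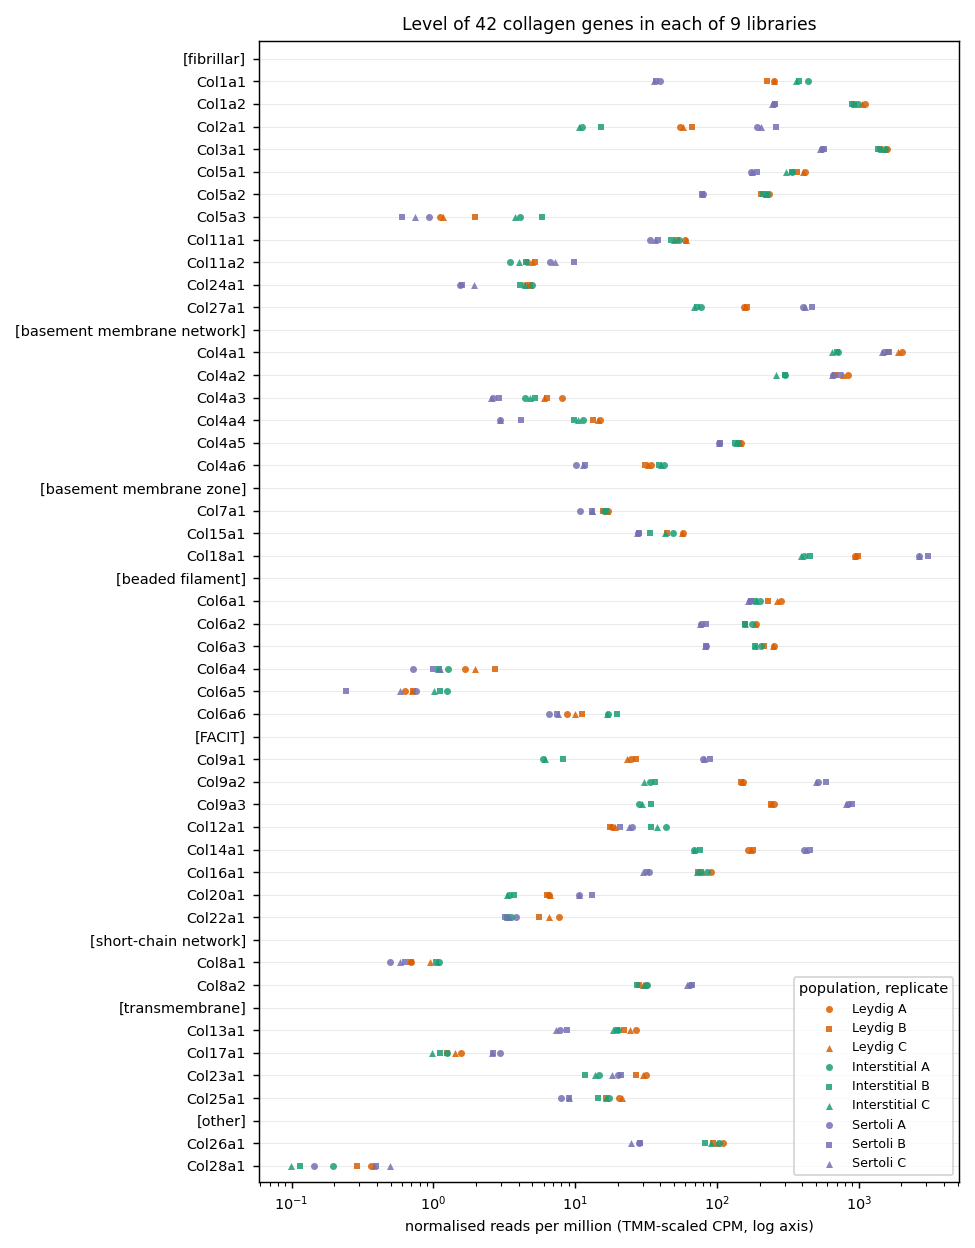
Normalised CPM (horizontal log axis) of the 42 collagen genes with enough reads to test, by structural class (rows), in the 3 Leydig, 3 Interstitial and 3 Sertoli libraries (colour is population, shape is replicate). The levels span from about 0.1 CPM for Col28a1 to 3064 CPM for Col18a1 in Sertoli replicate B, and Col9a3 shows the widest gap, at 28.1 to 34.5 CPM in Interstitial and 816 to 900 in Sertoli.

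Differences between populations were tested for each gene with edgeR's quasi-likelihood test on replicates A and B, and a gene was called at a Benjamini-Hochberg adjusted p under 0.05 over 18048 genes. Every adjusted p is from that test unless another tool is named, and measures the spread between pools. Of the 44 collagen genes 42 passed the filter on low counts. Col10a1, the collagen of hypertrophic cartilage, had 1 read in all 9 libraries together, and Col19a1, a FACIT chain known from developing muscle and the nervous system, had at most 7 reads in any library and lay at 0.0603 to 0.173 CPM. Neither was tested.

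In Leydig against Sertoli 24 of 42 collagen genes were called higher (57.1%), where 16.9% of all genes tested were, and 11 were called lower (26.2%), where 20.6% of all genes were. The 35 called in either direction compare with 37.5% of all genes. The median log2 difference was 0.54 over the collagens and -0.01 over all genes. In Leydig against Interstitial 17 were higher (40.5%), against 22.0% of all genes, and 5 were lower (11.9%), against 23.2% (22 of 42 in either direction, 45.1% of all genes), with a median of 0.25 over the collagens and 0.01 over all genes. In Interstitial against Sertoli 24 were higher (57.1%), against 32.7% of all genes, and 14 were lower (33.3%), close to the 29.1% of all genes (38 of 42 in either direction, 61.8% of all genes), with medians of 0.52 and 0.04. A difference of at least 2-fold was reached by 16 higher and 9 lower genes in Leydig against Sertoli, 10 and 2 in Leydig against Interstitial, and 15 and 13 in Interstitial against Sertoli. The share of all genes that reached 2-fold was not computed, so these counts do not set the collagens apart from other genes. The 3 comparisons share libraries pairwise and are not independent of each other. Scaling by library size alone shifted the median of all genes by 0.10 in Leydig against Sertoli and by 0.17 in Interstitial against Sertoli. Under it 22.2% of all genes were higher and 15.5% lower in Leydig against Sertoli, and 41.7% were higher and 22.2% lower in Interstitial against Sertoli, while the collagen counts became 26 and 11, and 25 and 14.

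**Figure D3:**
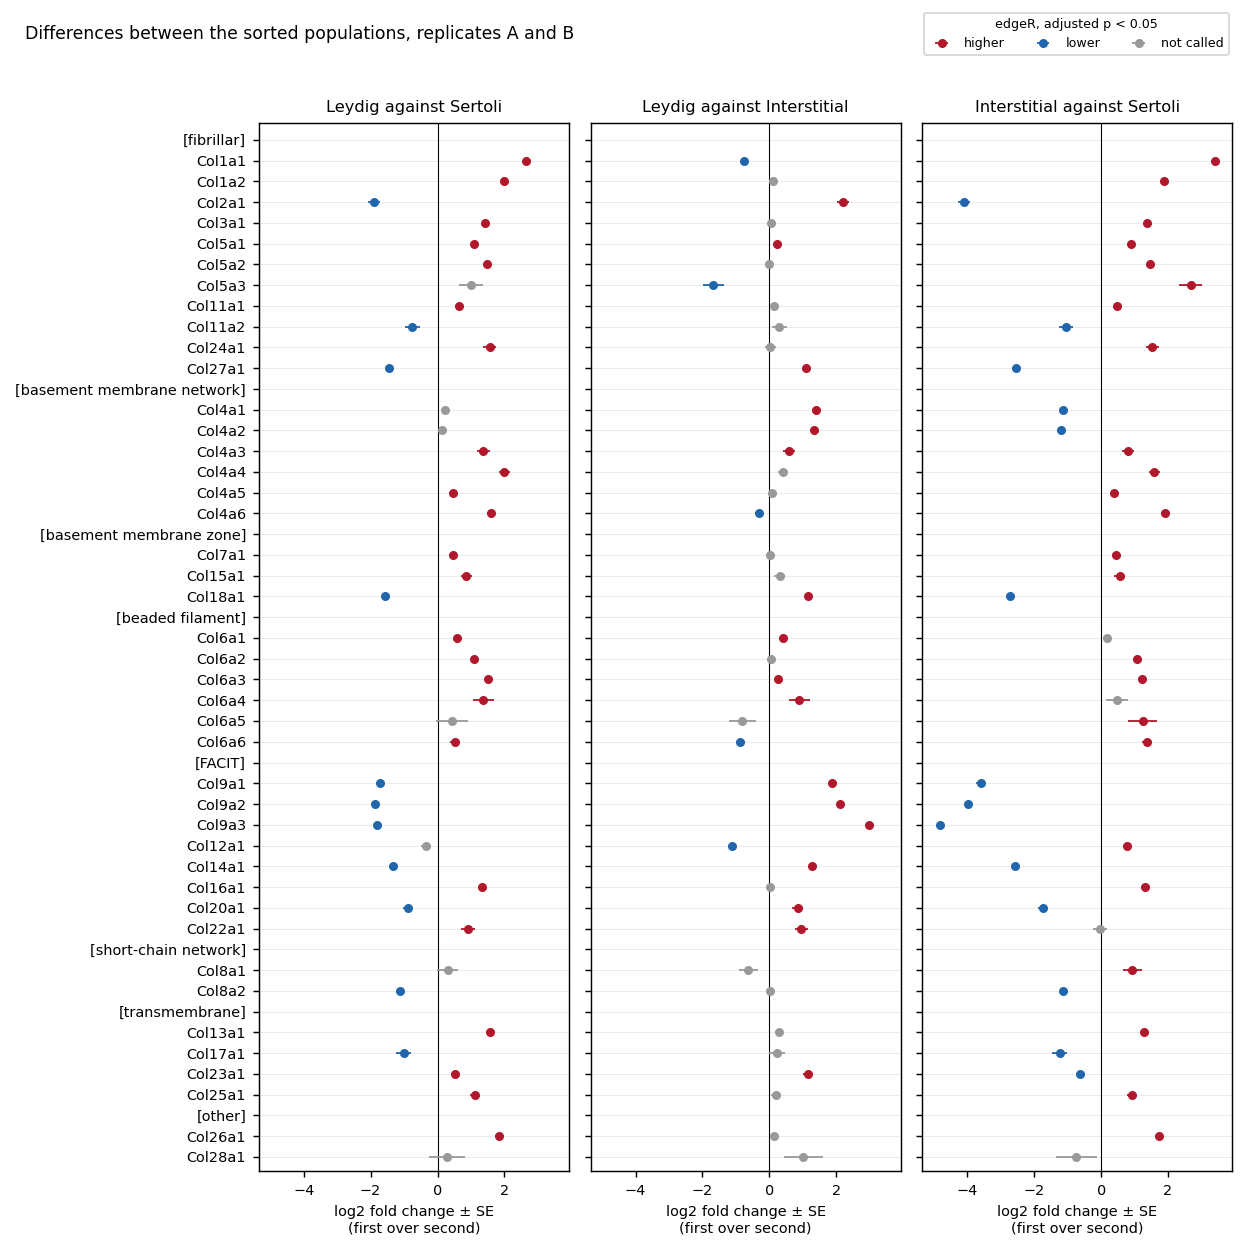
Log2 fold change ± SE (horizontal axes, first population over second) of the 42 tested collagen genes (rows, by structural class) in the 3 comparisons, from edgeR on replicates A and B. Red genes were called higher, blue lower and grey not called at an adjusted p under 0.05. The genes of the type IX collagen trimer and Col2a1 lie far left in Interstitial against Sertoli, between -3.59 and -4.81, and Col1a1 far right at 3.41.

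Among the 11 fibrillar genes Col1a1, Col1a2, Col3a1, Col5a1 and Col5a2, which build the fibres of soft connective tissue, were higher in Leydig and in Interstitial than in Sertoli, and the cartilage collagen genes Col2a1, Col11a2 and Col27a1 were lower. Col11a1, also a cartilage collagen gene, was higher in both. In Leydig against Sertoli 7 were higher and 3 lower, in Leydig against Interstitial 3 and 2, and in Interstitial against Sertoli 8 and 3. The shares of all genes higher and lower were 16.9% and 20.6%, 22.0% and 23.2%, and 32.7% and 29.1% in these comparisons. The lower fibrillar genes (27.3, 18.2 and 27.3%) and the higher ones in Leydig against Interstitial (27.3%) lie near these shares. Col1a1 and Col1a2 encode the alpha1 and alpha2 chains of type I collagen. Col1a1 (chr11:94936224-94953042, GRCm38) was at 252, 226 and 251 CPM in Leydig, 437, 381 and 359 in Interstitial and 39.7, 37.1 and 35.8 in Sertoli. The populations did not overlap, and Interstitial was highest. The log2 difference was 2.64 ± 0.09 (SE) in Leydig against Sertoli (adjusted p = 1.21e-06), -0.77 ± 0.08 in Leydig against Interstitial (adjusted p = 0.000193) and 3.41 ± 0.09 in Interstitial against Sertoli (adjusted p = 2.18e-08), a 10.6-fold difference. Its partner chain Col1a2 (chr6:4504814-4541544) was at 1102, 929 and 1054 CPM in Leydig, 996, 904 and 921 in Interstitial and 253, 258 and 245 in Sertoli. Leydig and Interstitial overlapped for this chain, with a log2 difference of 0.10 ± 0.09 (adjusted p = 0.416), and both stood above Sertoli, by 1.99 ± 0.09 (adjusted p = 2.05e-06) and 1.89 ± 0.09 (adjusted p = 5.27e-07).

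Col3a1 (chr1:45311538-45349706), the only chain of type III collagen, an early fibre of loose mesenchyme, had the most reads of the fibrillar genes. It was at 1590, 1418 and 1525 CPM in Leydig, 1541, 1373 and 1438 in Interstitial and 556, 572 and 537 in Sertoli. Leydig and Interstitial overlapped (log2 difference 0.05 ± 0.08, adjusted p = 0.692), and each was above Sertoli without overlap, by 1.42 ± 0.09 (adjusted p = 5.78e-06) and 1.37 ± 0.09 (adjusted p = 2.13e-06). Col5a1 and Col5a2 encode the chains of type V collagen, which starts and limits fibril growth. Col5a1 was at 417, 369 and 406 CPM in Leydig, 339, 337 and 305 in Interstitial and 175, 192 and 176 in Sertoli, with log2 differences of 1.10 ± 0.08 in Leydig against Sertoli (adjusted p = 1.22e-05), 0.22 ± 0.08 in Leydig against Interstitial (adjusted p = 0.0442) and 0.88 ± 0.08 in Interstitial against Sertoli (adjusted p = 1.72e-05). The small difference between Leydig and Interstitial was lost without Leydig replicate A (0.13, adjusted p = 0.244), without Interstitial replicate A (adjusted p = 0.151) or B (adjusted p = 0.194), and under scaling by library size alone (adjusted p = 0.149). Col5a2 lies tail to tail with Col3a1, 24.6 kb away, and was at 233, 206 and 223 CPM in Leydig, 226, 213 and 222 in Interstitial and 79.8, 78.5 and 78.5 in Sertoli. Leydig and Interstitial overlapped (adjusted p = 0.999), and each was 1.47 ± 0.07 above Sertoli (adjusted p = 2.38e-06 and 5.29e-07). The third type V chain, Col5a3, was scarce, at 1.11, 1.96 and 1.16 CPM in Leydig, 4.08, 5.82 and 3.79 in Interstitial and 0.924, 0.603 and 0.747 in Sertoli. It was 1.68 ± 0.31 log2 units lower in Leydig than in Interstitial (adjusted p = 0.00269), was 2.68 ± 0.34 higher in Interstitial than in Sertoli (adjusted p = 0.000167), and was not called in Leydig against Sertoli at 1.00 ± 0.37 (adjusted p = 0.0658), but was without Leydig replicate A (1.35, adjusted p = 0.0147).

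Col2a1 (chr15:97975602-98004695), the chain of type II collagen and a direct target of Sox9 in cartilage, was at 55.1, 66.7 and 58.1 CPM in Leydig, 11.2, 15.3 and 10.7 in Interstitial and 193, 260 and 204 in Sertoli. The 3 populations were fully separate, with Leydig between the others. The log2 difference was -1.90 ± 0.17 in Leydig against Sertoli (adjusted p = 4.36e-05), 2.21 ± 0.18 in Leydig against Interstitial (adjusted p = 4.89e-05) and -4.10 ± 0.19 in Interstitial against Sertoli (adjusted p = 3.69e-07), or 17.2-fold lower in Interstitial. Col27a1 (chr4:63214004-63334991), a fibrillar chain of cartilage matrix, followed the same order at 156, 164 and 159 CPM in Leydig, 76.8, 72.3 and 68.5 in Interstitial and 403, 468 and 421 in Sertoli. Its log2 differences were -1.45 ± 0.08 (adjusted p = 4.08e-06), 1.10 ± 0.08 (adjusted p = 2.75e-05) and -2.55 ± 0.09 (adjusted p = 5.98e-08) in Leydig against Sertoli, Leydig against Interstitial and Interstitial against Sertoli. Col11a1 and Col11a2 encode chains of type XI collagen, which joins type II in thin cartilage fibres, and they went opposite ways. Col11a1 was at 59.4, 52.4 and 60.4 CPM in Leydig, 53.8, 47.1 and 50.0 in Interstitial and 33.6, 38.7 and 36.8 in Sertoli, higher in Leydig (0.63 ± 0.10, adjusted p = 0.00147) and in Interstitial (0.48 ± 0.10, adjusted p = 0.00333) than in Sertoli. Col11a2 reached only 4.54, 5.21 and 4.93 CPM in Leydig, 3.45, 4.52 and 3.99 in Interstitial and 6.67, 9.79 and 7.25 in Sertoli. It was lower in Leydig (-0.75 ± 0.22, adjusted p = 0.0249) and in Interstitial (-1.05 ± 0.22, adjusted p = 0.00293) than in Sertoli, and the Leydig call was lost without Sertoli replicate B (-0.45, adjusted p = 0.198) or Leydig replicate A (-0.66, adjusted p = 0.0723). Col24a1, known from developing bone, was scarce at 4.45 to 4.81 CPM in Leydig, 4.06 to 4.99 in Interstitial and 1.53 to 1.94 in Sertoli, and was called higher in Leydig (1.56 ± 0.19, adjusted p = 0.000275) and in Interstitial (1.53 ± 0.19, adjusted p = 0.000148) than in Sertoli.

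The stretches upstream of Col3a1 and Col27a1 are shown because these fibrillar genes took opposite orders and neither stretch overlaps an annotated exon. Both are the 250 bases before the RefSeq start (GRCm38.p6, plus strand), at chr1:45311288-45311537 and chr4:63215162-63215411. GENCODE places the start of Col27a1 further upstream, so that its stretch is intronic in that annotation. Capitals mark, on either strand, the CCAAT box (CCAAT), the GC box (letters GGGCGG), the TATA box (letters TATAAA) and the core of SOX sites (letters ACAAT).
Col3a1: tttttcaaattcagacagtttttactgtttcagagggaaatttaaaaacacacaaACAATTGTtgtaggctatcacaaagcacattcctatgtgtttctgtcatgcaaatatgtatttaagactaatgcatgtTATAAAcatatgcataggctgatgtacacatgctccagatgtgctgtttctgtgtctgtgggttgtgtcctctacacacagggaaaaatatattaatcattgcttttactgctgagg
Col27a1: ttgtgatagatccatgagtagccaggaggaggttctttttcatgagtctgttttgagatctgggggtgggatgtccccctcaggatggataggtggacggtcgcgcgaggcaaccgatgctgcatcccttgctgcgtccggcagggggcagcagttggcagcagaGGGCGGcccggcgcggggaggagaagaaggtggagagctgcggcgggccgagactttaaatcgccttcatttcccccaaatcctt

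The Col3a1 stretch held ACAAT on both strands in a single run, overlapping by 2 bases, and 1 TATAAA, and the Col27a1 stretch held 1 GGGCGG. RefSeq gave such windows for 35 of the 44 genes (38 windows). GGGCGG was found for 21 of 35 genes, CCAAT for 13, TATAAA for 5 and ACAAT for 2, while the shares among all 32851 RefSeq windows were 32.7%, 33.8%, 12.4% and 27.7% in the same order. Of the genes highest in Sertoli that had a window, 5 of 8 held GGGCGG and 0 of 8 held ACAAT. Of those with Leydig and Interstitial both above Sertoli, 7 of 12 held GGGCGG and 1 of 12 held ACAAT. These are matches of letters only.

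The type IV network is made of 3 kinds of trimer, and the 6 genes lie as 3 head-to-head pairs that share a start region. The ubiquitous pair Col4a1 and Col4a2 was lower in Interstitial than in Leydig and Sertoli, while all 4 genes of the minor trimers were lowest in Sertoli. Col4a1 (chr8:11198423-11312826) was at 2021, 1648 and 1889 CPM in Leydig, 716, 699 and 647 in Interstitial and 1513, 1611 and 1465 in Sertoli. Col4a2 (chr8:11312805-11449287) was at 840, 684 and 778 CPM in Leydig, 304, 301 and 261 in Interstitial and 660, 734 and 652 in Sertoli. Every Interstitial library stood below every other for both genes. In Leydig against Interstitial the log2 difference was 1.38 ± 0.10 for Col4a1 (adjusted p = 2.18e-05) and 1.33 ± 0.10 for Col4a2 (adjusted p = 2.86e-05), and in Interstitial against Sertoli it was -1.14 ± 0.10 (adjusted p = 1.58e-05) and -1.20 ± 0.10 (adjusted p = 1.30e-05). In Leydig against Sertoli neither was called, at 0.23 ± 0.10 (adjusted p = 0.0966) and 0.13 ± 0.10 (adjusted p = 0.354). Without Leydig replicate B both were called higher, at 0.42 (adjusted p = 0.0028) and 0.31 (adjusted p = 0.0172). Col4a1 was also called higher under scaling by library size alone (0.33), with no filter on low counts (0.28) and with all 9 libraries (0.32), and Col4a2 with all 9 libraries (0.21).

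The first exons of Col4a1 and Col4a2 overlap on opposite strands in the annotation. The 22 bases they share (chr8:11312805-11312826, plus strand, RefSeq GRCm38.p6) are shown because they join the most abundant pair and hold 1 GGGCGG, in capitals.
shared by Col4a1 and Col4a2: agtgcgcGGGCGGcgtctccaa

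Col4a3 and Col4a4 encode chains of the trimer of mature kidney, lung and inner ear membranes, and Col4a5 and Col4a6 chains that in smooth muscle and some epithelia form a trimer of their own. Col4a3 was scarce, at 8.05, 6.33 and 6.04 CPM in Leydig, 4.42, 5.24 and 4.82 in Interstitial and 2.63, 2.92 and 2.55 in Sertoli, and was called in all 3 comparisons (1.37 ± 0.19, 0.58 ± 0.18 and 0.80 ± 0.19 in Leydig against Sertoli, Leydig against Interstitial and Interstitial against Sertoli, with adjusted p = 0.000505, 0.0279 and 0.00581). The call in Leydig against Interstitial was lost without Leydig replicate A (0.40, adjusted p = 0.161), Interstitial replicate A (0.45, adjusted p = 0.161) or Interstitial replicate B (0.68, adjusted p = 0.0535). Col4a4 was at 14.9, 13.4 and 14.4 CPM in Leydig, 11.4, 9.85 and 10.5 in Interstitial and 2.97, 4.13 and 2.96 in Sertoli. It was 2.0 ± 0.17 (adjusted p = 3.43e-05) and 1.59 ± 0.17 (adjusted p = 6.26e-05) above Sertoli in Leydig and Interstitial. Between those it was not called, at 0.41 ± 0.16 (adjusted p = 0.0585), and the value was 0.42 without Sertoli replicate A or B. Replicates A and B of Leydig were above those of Interstitial, and replicate C, taken as their mix, adds no independent library. Of the Col4a3 exons 5.6% lie opposite an antisense gene, C430014B12Rik, with at most 12 reads.

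The other minor pair lies on the X chromosome. Col4a5 was at 148, 143 and 146 CPM in Leydig, 140, 134 and 136 in Interstitial and 104, 105 and 104 in Sertoli (0.47 ± 0.06 in Leydig against Sertoli, adjusted p = 0.000248, and 0.39 ± 0.06 in Interstitial against Sertoli, adjusted p = 0.000366). Leydig against Interstitial gave 0.08 ± 0.06 (adjusted p = 0.282). Col4a6 was at 34.3, 31.2 and 32.9 CPM in Leydig, 42.6, 38.9 and 40.2 in Interstitial and 10.1, 11.7 and 11.4 in Sertoli, higher than Sertoli by 1.59 ± 0.10 in Leydig (adjusted p = 8.63e-06) and by 1.90 ± 0.10 in Interstitial (adjusted p = 1.01e-06). It was lower in Leydig than in Interstitial by 0.32 ± 0.10 (adjusted p = 0.0273), a call lost without Leydig replicate B (-0.26, adjusted p = 0.0975) or Interstitial replicate A (-0.26, adjusted p = 0.143).

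The start regions of the minor pairs are shown because genes that start within 71 bases of each other (Col4a4 and Col4a3) or within 1308 bases (Col4a6 and Col4a5) differed in how strongly they varied. The first line is the whole gap between Col4a4 and Col4a3 (chr1:82586850-82586920) and the second the 250 bases before Col4a6 (chrX:141474077-141474326), both on the minus strand from RefSeq GRCm38.p6, with the same 4 motifs in capitals. The gap held none of them, and the Col4a6 stretch held 1 GGGCGG, read from its other strand.
between Col4a4 and Col4a3: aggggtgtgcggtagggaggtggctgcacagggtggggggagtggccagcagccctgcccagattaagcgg
Col4a6: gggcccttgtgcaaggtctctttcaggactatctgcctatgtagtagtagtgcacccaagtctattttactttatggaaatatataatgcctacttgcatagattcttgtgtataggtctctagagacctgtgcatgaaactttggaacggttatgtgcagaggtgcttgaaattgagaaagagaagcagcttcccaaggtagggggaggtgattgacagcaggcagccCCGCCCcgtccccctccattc

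The 3 collagens of the basement membrane zone did not share an order. Col18a1 (chr10:77052178-77166548) encodes type XVIII collagen, a heparan sulfate proteoglycan of basement membranes whose end fragment is endostatin, and had the most reads of any collagen in Sertoli. It was at 945, 983 and 941 CPM in Leydig, 409, 453 and 392 in Interstitial and 2652, 3064 and 2653 in Sertoli. The populations were fully separate, Sertoli highest and Leydig between. The log2 difference was -1.57 ± 0.09 in Leydig against Sertoli (adjusted p = 4.59e-06), 1.16 ± 0.09 in Leydig against Interstitial (adjusted p = 3.29e-05) and -2.73 ± 0.09 in Interstitial against Sertoli (adjusted p = 7.06e-08). Col15a1, its closest relative and a collagen of vessel and muscle membranes, went the other way, at 57.6, 44.6 and 56.7 CPM in Leydig, 48.7, 33.8 and 43.2 in Interstitial and 27.9, 28.4 and 27.4 in Sertoli. It was higher in Leydig (0.86 ± 0.17, adjusted p = 0.00418) and in Interstitial (0.55 ± 0.17, adjusted p = 0.0203) than in Sertoli, and between Leydig and Interstitial, which overlapped, 0.31 ± 0.17 was not called (adjusted p = 0.17). The Interstitial call was lost without Sertoli replicate A (adjusted p = 0.103), Sertoli replicate B (adjusted p = 0.0902) or Interstitial replicate A (0.32, adjusted p = 0.107). Without Leydig replicate B or Interstitial replicate A the Leydig against Interstitial difference was called, at 0.47 (adjusted p = 0.0412) and 0.585 (adjusted p = 0.0199). The anchoring fibril gene Col7a1 was at 17.1, 15.7 and 16.7 CPM in Leydig, 15.9, 16.4 and 13.2 in Interstitial and 10.9, 13.1 and 13.1 in Sertoli. Its differences from Sertoli, 0.45 ± 0.11 in Leydig (adjusted p = 0.0137) and 0.43 ± 0.11 in Interstitial (adjusted p = 0.0099), were both lost without Sertoli replicate A, at 0.32 (adjusted p = 0.0964) and 0.30 (adjusted p = 0.0758).

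Type VI collagen forms beaded filaments that link cells to the surrounding fibres, and its main trimer joins the chains of Col6a1, Col6a2 and Col6a3. Of the 6 genes 5 were higher in Leydig than in Sertoli and 4 in Interstitial than in Sertoli, with 0 lower in both. Against Interstitial, 3 were higher in Leydig and 1 was lower. Over the whole gene set, calls came to 16.9% higher and 20.6% lower for Leydig against Sertoli. They came to 32.7% and 29.1% for Interstitial against Sertoli, and to 22.0% and 23.2% for Leydig against Interstitial. The 1 type VI gene with a lower call (16.7%) lies below that 23.2%. Col6a1 (chr10:76708792-76726168) was at 282, 230 and 265 CPM in Leydig, 203, 186 and 188 in Interstitial and 170, 175 and 165 in Sertoli. It was higher in Leydig than in Sertoli (0.57 ± 0.09, adjusted p = 0.00159) and than in Interstitial (0.40 ± 0.09, adjusted p = 0.00896), and the call against Interstitial was lost without Interstitial replicate B (0.32, adjusted p = 0.0819). Interstitial against Sertoli gave 0.17 ± 0.09 (adjusted p = 0.147), which was called without Leydig replicate A (0.17, adjusted p = 0.0497) or B (0.23, adjusted p = 0.0135) and under scaling by library size alone (0.34, adjusted p = 0.0133). Its neighbour Col6a2, 85.2 kb away on the same strand, was at 188, 157 and 185 CPM in Leydig, 176, 159 and 157 in Interstitial and 77.5, 83.2 and 76.6 in Sertoli, with 1.10 ± 0.09 in Leydig against Sertoli (adjusted p = 3.52e-05), 1.06 ± 0.09 in Interstitial against Sertoli (adjusted p = 1.95e-05) and 0.04 ± 0.09 between Leydig and Interstitial (adjusted p = 0.761). Col6a3 was at 254, 216 and 248 CPM in Leydig, 205, 187 and 187 in Interstitial and 83.2, 83.4 and 83.1 in Sertoli, with 1.5 ± 0.09 in Leydig against Sertoli (adjusted p = 4.44e-06), 1.23 ± 0.09 in Interstitial against Sertoli (adjusted p = 4.13e-06) and 0.26 ± 0.08 in Leydig against Interstitial (adjusted p = 0.0301). That last call was lost on leaving out either Sertoli library (adjusted p = 0.0533 and 0.0523), Leydig replicate A (0.15, adjusted p = 0.194) or Interstitial replicate B (0.18, adjusted p = 0.224), and under scaling by library size alone (0.20, adjusted p = 0.0861).

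The other type VI genes, whose chains can take the place of the alpha3 chain, lie in a row on chromosome 9. Col6a6 was the only one above 10 CPM, at 8.77, 11.1 and 9.99 CPM in Leydig, 17.0, 19.6 and 16.7 in Interstitial and 6.56, 7.44 and 7.55 in Sertoli. Interstitial was highest without overlap, by 1.38 ± 0.15 over Sertoli (adjusted p = 5.48e-05), and Leydig was lower than Interstitial by 0.87 ± 0.14 (adjusted p = 0.00143). Leydig was higher than Sertoli by 0.51 ± 0.15 (adjusted p = 0.027), a call lost without Sertoli replicate A (0.42, adjusted p = 0.159), Sertoli replicate B (0.60, adjusted p = 0.0604) or Leydig replicate B (0.37, adjusted p = 0.0997). Col6a4 and Col6a5 stayed under 3 CPM, at 0.631 to 2.73 in Leydig, 1.01 to 1.27 in Interstitial and 0.241 to 1.11 in Sertoli. Col6a4 was called higher in Leydig than in Sertoli (1.37 ± 0.32, adjusted p = 0.00891) and in Interstitial (0.90 ± 0.30, adjusted p = 0.0372), and without Leydig replicate B these were 1.02 (adjusted p = 0.0508) and 0.49 (adjusted p = 0.278). The first was also lost without Sertoli replicate A (1.15, adjusted p = 0.0773), and the second without Interstitial replicate A (1.00, adjusted p = 0.0873) or B (0.78, adjusted p = 0.16), under scaling by library size alone (adjusted p = 0.0536) and with DESeq2 (adjusted p = 0.0931). Col6a5 was called only in Interstitial against Sertoli (1.24 ± 0.43, adjusted p = 0.033), and this was lost without Sertoli replicate B (0.65, adjusted p = 0.156), without either Interstitial library (adjusted p = 0.0978 and 0.0588) and with DESeq2 (adjusted p = 0.092).

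The largest difference of any collagen was that of the FACIT gene Col9a3. Of 8 FACIT genes tested, 2 were higher and 5 lower in Leydig against Sertoli (median log2 difference -1.10), 6 were higher and 1 lower in Leydig against Interstitial (median 1.12), and 2 were higher and 5 lower in Interstitial against Sertoli (median -2.16). In these comparisons 16.9% and 20.6%, 22.0% and 23.2%, and 32.7% and 29.1% of all genes were higher and lower. The 2 of 8 higher in each comparison against Sertoli (25.0%) lie near these shares. Type IX collagen is a trimer of the products of Col9a1, Col9a2 and Col9a3 that decorates type II fibres in cartilage. Col9a3 (chr2:180597790-180622189) was at 254, 241 and 240 CPM in Leydig, 28.1, 34.5 and 29.8 in Interstitial and 848, 900 and 816 in Sertoli. Each population stood apart, and Interstitial was 28.0-fold below Sertoli. The log2 difference was -1.82 ± 0.09 in Leydig against Sertoli (adjusted p = 2.94e-06), 2.99 ± 0.10 in Leydig against Interstitial (adjusted p = 4.74e-07) and -4.81 ± 0.11 in Interstitial against Sertoli (adjusted p = 9.54e-09). The antisense gene Tcfl5 overlaps 234 bases (6.1%) of the Col9a3 exons and had at most 429 reads in a library, and how its reads were assigned there is not known. Col9a2 was at 154, 149 and 151 CPM in Leydig, 33.5, 36.8 and 30.4 in Interstitial and 519, 585 and 500 in Sertoli, and Col9a1 at 24.6, 26.8 and 23.2 CPM in Leydig, 5.89, 8.18 and 6.10 in Interstitial and 79.9, 89.0 and 81.5 in Sertoli. The order Interstitial, Leydig, Sertoli thus held for all 3 chains in every library. For Col9a2 the log2 differences were -1.87 ± 0.08 (adjusted p = 1.43e-06), 2.11 ± 0.08 (adjusted p = 8.77e-07) and -3.97 ± 0.09 (adjusted p = 8.51e-09), and for Col9a1 -1.72 ± 0.13 (adjusted p = 1.59e-05), 1.88 ± 0.14 (adjusted p = 2.80e-05) and -3.59 ± 0.14 (adjusted p = 1.42e-07), in Leydig against Sertoli, Leydig against Interstitial and Interstitial against Sertoli.

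Col14a1 and Col20a1, FACIT genes whose products carry von Willebrand factor A and fibronectin type III domains, had the same order as type IX. Col14a1 (chr15:55307750-55520803) was at 165, 181 and 175 CPM in Leydig, 68.5, 75.5 and 69.5 in Interstitial and 410, 454 and 428 in Sertoli (-1.32 ± 0.08, adjusted p = 6.18e-06, in Leydig against Sertoli, 1.27 ± 0.08, adjusted p = 1.18e-05, in Leydig against Interstitial, and -2.58 ± 0.08, adjusted p = 5.28e-08, in Interstitial against Sertoli). Col20a1 was at 6.52, 6.30 and 6.69 CPM in Leydig, 3.42, 3.71 and 3.32 in Interstitial and 10.6, 13.1 and 10.6 in Sertoli (-0.88 ± 0.15, adjusted p = 0.00147, 0.85 ± 0.16, adjusted p = 0.00257, and -1.73 ± 0.15, adjusted p = 1.76e-05, in the same comparisons). Col12a1, the closest relative of Col14a1 and a collagen of tendon and other dense fibrous tissue, did not follow it. It was at 18.3, 17.5 and 19.2 CPM in Leydig, 43.5, 34.5 and 37.8 in Interstitial and 25.0, 20.7 and 23.9 in Sertoli. Interstitial was highest in every library, 0.77 ± 0.13 above Sertoli (adjusted p = 0.000875), with Leydig lower than Interstitial by 1.12 ± 0.13 (adjusted p = 0.000281) and at -0.35 ± 0.13 against Sertoli (adjusted p = 0.0695). The difference of Col12a1 between Leydig and Sertoli was called with no filter on low counts (-0.31, adjusted p = 0.0272) and with all 9 libraries (-0.30, adjusted p = 0.0152), where replicate C is not independent of A and B.

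Col16a1, a FACIT of fibroblasts and smooth muscle, was at 90.7, 73.0 and 77.9 CPM in Leydig, 84.8, 76.7 and 72.4 in Interstitial and 33.4, 31.9 and 30.1 in Sertoli, higher than Sertoli by 1.33 ± 0.11 in Leydig (adjusted p = 2.37e-05) and by 1.31 ± 0.11 in Interstitial (adjusted p = 1.10e-05). Leydig and Interstitial overlapped at 0.02 ± 0.10 (adjusted p = 0.898). Col22a1, a collagen of tissue junctions such as the one between muscle and tendon, was scarce, at 7.72, 5.55 and 6.58 CPM in Leydig, 3.52, 3.28 and 3.30 in Interstitial and 3.84, 3.19 and 3.43 in Sertoli. It was higher in Leydig than in Sertoli (0.91 ± 0.20, adjusted p = 0.00714) and than in Interstitial (0.96 ± 0.20, adjusted p = 0.00482), and the first call was lost without Sertoli replicate B (0.79, adjusted p = 0.0645).

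Col8a2, a short-chain collagen of the corneal membrane, was at 31.7, 28.3 and 30.3 CPM in Leydig, 32.3, 27.2 and 30.4 in Interstitial and 64.9, 66.4 and 61.6 in Sertoli. It was lower in Leydig (-1.13 ± 0.10 against Sertoli, adjusted p = 3.47e-05) and in Interstitial (-1.14 ± 0.10, adjusted p = 1.44e-05), and those overlapped (0.01 ± 0.10, adjusted p = 0.944). Its partner Col8a1 was at most 1.10 CPM, and its call in Interstitial against Sertoli (0.93 ± 0.29, adjusted p = 0.0214) was lost without Sertoli replicate A (0.75, adjusted p = 0.118), without Interstitial replicate A (adjusted p = 0.0686) and with DESeq2 (adjusted p = 0.151).

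Transmembrane collagens are membrane proteins with a collagenous part outside the cell. Col13a1, found at cell adhesions and the neuromuscular junction, was at 26.7, 22.0 and 24.4 CPM in Leydig, 20.1, 19.8 and 18.6 in Interstitial and 7.77, 8.71 and 7.30 in Sertoli (1.56 ± 0.12, adjusted p = 1.91e-05, in Leydig against Sertoli and 1.28 ± 0.12, adjusted p = 2.76e-05, in Interstitial against Sertoli). Leydig against Interstitial gave 0.29 ± 0.11 (adjusted p = 0.0681), and 0.41 (adjusted p = 0.014) without Leydig replicate B. Col25a1, known from motor axons and amyloid plaques, was at 20.3, 16.5 and 21.3 CPM in Leydig, 17.4, 14.6 and 16.6 in Interstitial and 7.97, 9.07 and 9.02 in Sertoli (1.11 ± 0.14, adjusted p = 0.000339, and 0.91 ± 0.14, adjusted p = 0.000551, against Sertoli, and 0.20 ± 0.14, adjusted p = 0.258, between Leydig and Interstitial). Both genes stood above Sertoli in every Leydig and Interstitial library. Col23a1 had another order, Leydig, Sertoli and then Interstitial, at 31.8, 27.0 and 30.3 CPM in Leydig, 14.7, 11.8 and 13.7 in Interstitial and 19.9, 21.0 and 18.3 in Sertoli. It was 0.52 ± 0.12 higher in Leydig than in Sertoli (adjusted p = 0.00978, lost without Sertoli replicate A at 0.48, adjusted p = 0.0783), 1.14 ± 0.13 higher than in Interstitial (adjusted p = 0.000199) and 0.62 ± 0.13 lower in Interstitial than in Sertoli (adjusted p = 0.00254). Col17a1, the collagen of epithelial hemidesmosomes, stayed under 3 CPM and was lower in Leydig (-1.01 ± 0.23, adjusted p = 0.00766) and in Interstitial (-1.24 ± 0.23, adjusted p = 0.00137) than in Sertoli. The Leydig call was lost without Sertoli replicate A (-0.92, adjusted p = 0.0535) or Leydig replicate B (-0.80, adjusted p = 0.062).

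Col26a1, also named Emid2, was at 111, 93.9 and 100 CPM in Leydig, 103, 82.9 and 91.5 in Interstitial and 28.1, 28.7 and 24.9 in Sertoli. It was higher than Sertoli by 1.85 ± 0.12 in Leydig (adjusted p = 7.58e-06) and by 1.72 ± 0.12 in Interstitial (adjusted p = 4.06e-06), and Leydig and Interstitial overlapped (0.14 ± 0.11, adjusted p = 0.361). Col28a1, a collagen of peripheral nerve, had at most 0.498 CPM and was called in no comparison.

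By the calls of all 3 comparisons the 42 genes fell into a few orders. The share of all genes in each order was not computed, so these counts describe the collagens without setting them apart from other genes. The 14 genes with Leydig and Interstitial both above Sertoli and not called between them were Col1a2, Col3a1, Col4a4, Col4a5, Col5a2, Col6a2, Col7a1, Col11a1, Col13a1, Col15a1, Col16a1, Col24a1, Col25a1 and Col26a1. The 8 genes highest in Sertoli with Leydig between were Col2a1, Col9a1, Col9a2, Col9a3, Col14a1, Col18a1, Col20a1 and Col27a1, and 3 more were highest in Sertoli with Leydig and Interstitial not called apart (Col8a2, Col11a2 and Col17a1). The 7 genes highest in Leydig were Col4a3, Col5a1, Col6a1, Col6a3, Col6a4, Col22a1 and Col23a1. Interstitial was highest for 5, namely Col1a1, Col4a6 and Col6a6 with Leydig between, and Col5a3 and Col12a1. The other 5 were Col4a1, Col4a2, Col6a5, Col8a1 and Col28a1. Membership rests on a threshold in each comparison, and the losses of calls given above would move genes between these orders.

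The 8 collagens highest in Sertoli with Leydig between were set beside the 9 Sertoli markers. They were chosen by that order, so a Leydig share between those of Interstitial and Sertoli follows from the choice. The other 3 genes highest in Sertoli, Col8a2, Col11a2 and Col17a1, were not called between Leydig and Interstitial and are left out. Col8a2, for one, had means of 30.0 CPM in Leydig, 29.8 in Interstitial and 65.6 in Sertoli. As a share of the Sertoli mean these collagens stood at 26.9 to 54.2% in Leydig (median 32.0%) and at 3.6 to 30.1% in Interstitial (median 11.7%). The Sertoli markers stood at 26.7 to 56.7% in Leydig (median 29.2%) and at 3.0 to 54.4% in Interstitial (median 3.8%), and all 9 of 9 were lower in Leydig and in Interstitial than in Sertoli. Col9a3 was at 28.3% of Sertoli in Leydig and 3.58% in Interstitial, where the hormone gene Amh was at 27.0% and 3.60%. Col14a1, Col18a1 and Col27a1 were at 33.7 to 40.1% in Leydig and 15.1 to 17.1% in Interstitial. Dmrt1, a marker also expressed in germ cells, was at 32.6% in Leydig and 54.4% in Interstitial. The part of Sertoli transcripts in the Leydig levels of these collagens was not tested.

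**Figure D4:**
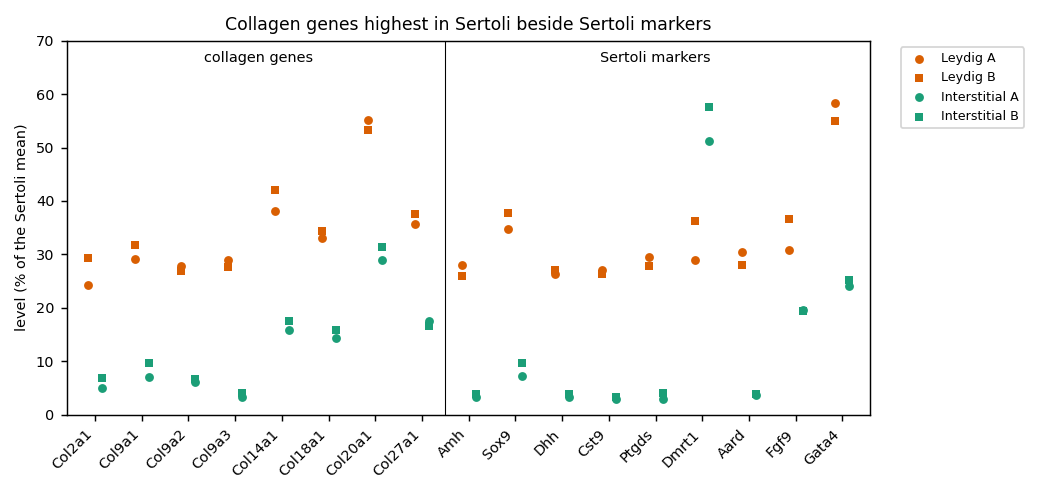
Level as a percent of the Sertoli mean (vertical axis) for the 8 collagen genes highest in Sertoli with Leydig between (left) and the 9 Sertoli markers (right), in replicates A (circles) and B (squares) of Leydig and Interstitial. Col9a3 sits at 29.0 and 27.6% in Leydig and 3.21 and 3.95% in Interstitial, beside Amh at 28.0 and 25.9% in Leydig and 3.28 and 3.91% in Interstitial. The 8 collagen genes were chosen by their order, so a Leydig level above Interstitial and below Sertoli follows from the choice.

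Markers of several other cell types were, like many collagens, lowest in Sertoli. All 10 endothelial markers, 7 of 7 interstitial progenitor markers and 7 of 9 smooth muscle and pericyte markers were higher in Leydig than in Sertoli, against 16.9% of all genes. In Interstitial against Sertoli 10, 6 and 6 were higher, against 32.7% of all genes. There 2 smooth muscle and pericyte markers were lower, Cspg4 (means 47.6 in Interstitial and 86.6 CPM in Sertoli) and Myh11 (8.28 and 11.8). The progenitor markers summed to 1196 to 1339 CPM in Leydig, 855 to 880 in Interstitial and 404 to 420 in Sertoli, and the smooth muscle and pericyte markers to 307 to 357, 249 to 285 and 179 to 199. No marker of these lists was at 0 in every library of a population. The mesothelial markers, 5 in number, summed to 98.1 to 109 CPM in Leydig, 147 to 182 in Interstitial and 7.56 to 8.63 in Sertoli, and the 7 macrophage markers to 12.1 to 21.4, 44.1 to 68.1 and 1.3 to 1.93, an order shared with Col1a1, Col4a6 and Col6a6. The 5 markers of mesonephric tubules summed to 48.5 to 53.3 CPM in Leydig, 78.4 to 84.3 in Interstitial and 26.8 to 29.5 in Sertoli. Emx2 made the largest part, with means of 41.5, 39.9 and 20.3 CPM in that order. The others were highest in Interstitial: Cdh16 at 0.641, 22.2 and 0.0879, Wnt9b at 0.0588, 3.7 and 0.0584, Pax2 at 0.293, 3.06 and 0.515, and Pax8 at 6.2, 12.5 and 5.94. The 5 Schwann and neural crest markers went the other way, at 71.2 to 74.5 CPM in Leydig, 60.4 to 72.2 in Interstitial and 220 to 223 in Sertoli. Of the 4 tested, 3 were lower in Leydig and 3 lower in Interstitial than in Sertoli, against 20.6% and 29.1% of all genes. The part of these cell types in the levels of Col1a1, Col3a1 and the other collagens lowest in Sertoli was not tested. The chondrocyte list was checked because Col2a1, Col9a1, Col9a2, Col9a3, Col11a2 and Col27a1, highest in Sertoli, and Col11a1, lowest there, are genes of cartilage. Its 6 genes summed to 50.4 to 52.2 CPM in Leydig, 20.7 to 21.4 in Interstitial and 43.6 to 46.7 in Sertoli. The cartilage genes Matn1 and Snorc were at 0 to 0.0904 and 0 to 0.144 CPM over the 9 libraries. Acan, the main proteoglycan of cartilage, was at 17.1, 16.8 and 16.0 CPM in Leydig, 2.96, 3.43 and 3.25 in Interstitial and 19.1, 24.7 and 20.7 in Sertoli. Cnmd, the gene of chondromodulin, was highest in Sertoli, at 3.73, 3.48 and 3.95 CPM in Leydig, 0.513, 0.633 and 0.492 in Interstitial and 13.7, 10.5 and 11.9 in Sertoli. Hapln1, the link protein of cartilage proteoglycan, had another order and was lowest in Sertoli, at 29.3, 30.1 and 31.7 CPM in Leydig, 17.0, 16.8 and 17.2 in Interstitial and 10.3, 11.2 and 11.5 in Sertoli. Matn3 stayed at 0.211 to 0.489 CPM in all 9 libraries. Of the 4 genes tested, 1 was higher and 1 lower in Leydig against Sertoli, 3 and 0 in Leydig against Interstitial, and 1 and 2 in Interstitial against Sertoli. The shares of all genes were 16.9% and 20.6%, 22.0% and 23.2%, and 32.7% and 29.1% in these comparisons. The part of chondrocytes in the levels of the cartilage collagens was not tested.

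Chains of 1 trimer were compared as ratios of their levels per kilobase within each library. The ratio of Col1a1 to Col1a2 was 0.433, 0.460 and 0.450 in Leydig, 0.830, 0.798 and 0.739 in Interstitial and 0.297, 0.273 and 0.276 in Sertoli. The type I trimer uses more alpha1 than alpha2 chain, and the ratio was below 1 in every library with either length. Its size depends on the length used for Col1a2, since the longest transcript gave 0.206 to 0.219 in Leydig, 0.352 to 0.395 in Interstitial and 0.130 to 0.141 in Sertoli, but the order of the populations does not. The ratio of Col4a1 to Col4a2 was 2.13 to 2.15 in Leydig, 2.06 to 2.20 in Interstitial and 1.95 to 2.03 in Sertoli, although both genes differed by more than 2-fold between Interstitial and the others. The Col4a5 to Col4a6 ratio was 5.12 to 5.43 in Leydig, 3.91 to 4.10 in Interstitial and 10.6 to 12.3 in Sertoli. The Col6a1 to Col6a3 ratio was 2.90 to 3.03 in Leydig, 2.70 to 2.75 in Interstitial and 5.41 to 5.73 in Sertoli, and Col6a1 to Col6a2 was 2.72 to 2.85, 2.19 to 2.28 and 4.00 to 4.17. The Col9a2 to Col9a3 ratio was alike in Leydig (0.755 to 0.785) and Sertoli (0.762 to 0.809), whose ranges overlapped, and higher in Interstitial (1.27 to 1.49). The ratio of Col9a1 to Col9a2 lay between 0.0929 and 0.136 in all 9 libraries, so Col9a1 was the scarcest chain of its trimer per kilobase. The Col11a1 to Col11a2 ratio was 5.42 to 7.07 in Leydig, 5.62 to 8.42 in Interstitial and 2.13 to 2.74 in Sertoli.

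**Figure D5:**
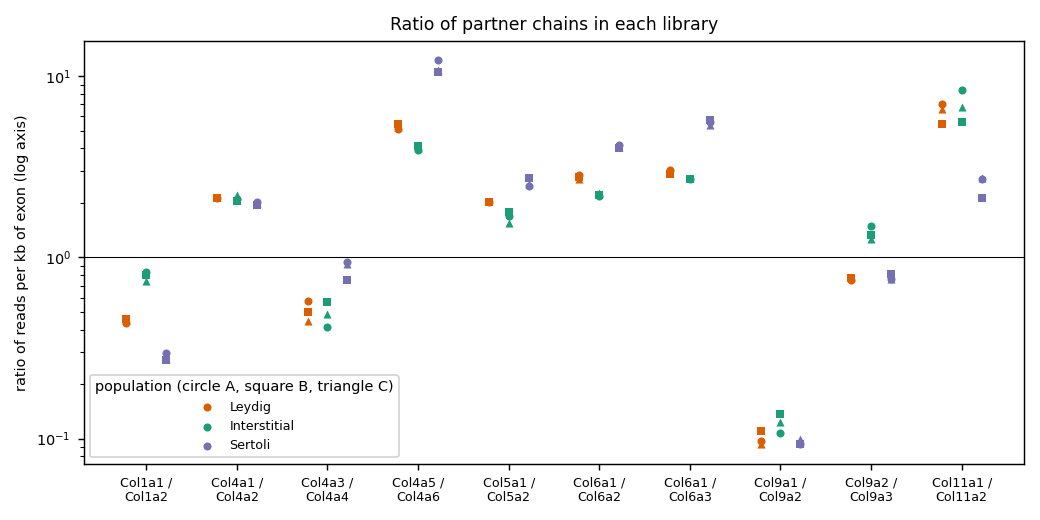
Ratio of the levels per kilobase of exon of chains that join in 1 collagen type (vertical log axis) for 10 pairs, in each of the 9 libraries (colour is population, shape is replicate). Col4a1 / Col4a2 stays between 1.95 and 2.20 in all of them, while Col1a1 / Col1a2 reaches 0.830 in Interstitial and is at most 0.297 in Sertoli.

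Of 20 genes for the folding and modification of collagen chains inside the cell, 6 were higher and 8 lower in Leydig against Sertoli (median log2 difference -0.18), 15 were higher and 0 lower in Leydig against Interstitial (median 0.42), and 5 were higher and 13 lower in Interstitial against Sertoli (median -0.46). Among all genes 16.9% were higher and 20.6% lower in Leydig against Sertoli, 22.0% and 23.2% in Leydig against Interstitial, and 32.7% and 29.1% in Interstitial against Sertoli, so that the 5 higher of 20 lie below the share of all genes. Interstitial, which had the lowest share of collagen reads, was also the lowest in the sum of these genes, at 2012 to 2163 CPM, against 2645 to 2840 in Leydig and 3066 to 3126 in Sertoli. Plod2, the lysyl hydroxylase of the collagen ends, was at 115 ± 3.15 CPM in Leydig, 75.2 ± 0.60 in Interstitial and 234 ± 13.3 in Sertoli (SD, n = 2), lower than Sertoli by 1.02 ± 0.06 in Leydig (adjusted p = 6.15e-06) and by 1.64 ± 0.06 in Interstitial (adjusted p = 1.28e-07). The collagen galactosyltransferase gene Colgalt1 was lower in Leydig than in Sertoli (-0.86 ± 0.07, adjusted p = 3.05e-05), and P3h4, a cofactor of lysyl hydroxylation, lower in Interstitial than in Sertoli (-1.51 ± 0.13, adjusted p = 1.69e-05) and higher in Leydig than in Interstitial (0.84 ± 0.13, adjusted p = 0.00119). Creb3l1, a transcription factor that activates type I collagen genes in bone, was higher in Leydig than in Sertoli, at 36.3 ± 4.01 and 13.1 ± 1.41 CPM (1.47 ± 0.14, adjusted p = 6.70e-05), as was the prolyl 3-hydroxylase family gene P3h3 at 65.5 ± 10.3 and 30.0 ± 0.125 CPM (1.13 ± 0.10, adjusted p = 5.13e-05).

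Of 13 tested genes for propeptide cleavage and cross-linking, 8 were higher and 3 lower in Leydig against Sertoli, 6 and 2 in Leydig against Interstitial, and 8 and 3 in Interstitial against Sertoli. The shares of all genes higher and lower were 16.9% and 20.6%, 22.0% and 23.2%, and 32.7% and 29.1% in these comparisons, and the counts of lower genes lie near or below them. Lox, the lysyl oxidase that cross-links fibrillar collagen, was at 26.4 ± 4.23 CPM in Leydig, 24.3 ± 3.64 in Interstitial and 2.82 ± 0.439 in Sertoli, higher than Sertoli by 3.22 ± 0.18 in Leydig (adjusted p = 3.82e-06) and by 3.11 ± 0.18 in Interstitial (adjusted p = 1.25e-06). Pxdn, the peroxidasin that cross-links type IV collagen, was lower in both, at 500 ± 0.264 CPM in Leydig, 335 ± 1.17 in Interstitial and 696 ± 58.5 in Sertoli (-0.48 ± 0.07, adjusted p = 0.000814, and -1.05 ± 0.07, adjusted p = 3.52e-06). Pcolce, an enhancer of procollagen cleavage, was at 141 ± 21.7 CPM in Leydig, 59.1 ± 6.46 in Interstitial and 193 ± 13.3 in Sertoli, lower in Interstitial than in Sertoli by 1.71 ± 0.12 (adjusted p = 3.63e-06) and higher in Leydig than in Interstitial by 1.26 ± 0.12 (adjusted p = 7.80e-05).

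Of 10 collagen receptor genes tested, 4 were higher and 3 lower in Leydig against Sertoli, 5 and 3 in Leydig against Interstitial, and 5 and 4 in Interstitial against Sertoli. Of all genes 16.9% and 20.6%, 22.0% and 23.2%, and 32.7% and 29.1% were higher and lower in these comparisons, and 3 of 10 lower lies near those shares. Ddr2, a receptor kinase for fibrillar collagen, was at 14.5 ± 0.0673 CPM in Leydig, 41.2 ± 10.2 in Interstitial and 2.23 ± 0.38 in Sertoli, and the log2 difference was 2.70 ± 0.20 in Leydig against Sertoli (adjusted p = 1.73e-05), -1.5 ± 0.16 in Leydig against Interstitial (adjusted p = 0.000183) and 4.21 ± 0.20 in Interstitial against Sertoli (adjusted p = 4.16e-07). Itga1, the integrin subunit of a receptor for type IV and other collagens, was higher in Interstitial than in Sertoli, at 22.0 ± 2.26 and 3.39 ± 0.232 CPM (2.70 ± 0.13, adjusted p = 4.52e-07). Adgrg1, an adhesion receptor known to bind type III collagen, was lowest in Interstitial, at 91.5 ± 1.26 CPM in Leydig, 31.0 ± 4.09 in Interstitial and 309 ± 15.3 in Sertoli (-1.76 ± 0.09, adjusted p = 2.42e-06, in Leydig against Sertoli and -3.32 ± 0.09, adjusted p = 2.47e-08, in Interstitial against Sertoli). Itga11, an integrin subunit for fibrillar collagen, was likewise highest in Sertoli at 37.4 ± 2.12 CPM, with 14.7 ± 1.57 in Leydig (-1.35 ± 0.10, adjusted p = 1.70e-05) and 5.45 ± 0.136 in Interstitial (-2.78 ± 0.11, adjusted p = 1.45e-07).

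The authors' deposited tables list the genes of each comparison with a fold change of at least 2, and their values come from the authors' own fit. They hold 16 collagens higher and 8 lower in Leydig over Sertoli, 10 and 2 in Leydig over Interstitial, and 14 and 12 in Interstitial over Sertoli. Each of these genes was called in the same direction by edgeR here, and the log2 fold changes differed by at most 0.16, 0.06 and 0.17. In the authors' deposited table Col9a3 had a log2 fold change of -4.72 in Interstitial over Sertoli. Col17a1 in Leydig against Sertoli, and Col6a5 and Col11a2 in Interstitial against Sertoli, passed 2-fold in edgeR and are not in those tables.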

How the data were processed

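The read counts per gene, library and lane were made by the authors with TopHat2 2.0.6 and HTSeq on mm10, per the submitters' processing notes; the sources used here give neither annotation release nor strand setting. The log2 fold changes and adjusted p-values in the authors' deposited tables come from limma, per the same notes, and cover only genes of at least 2-fold. Counts were summed over 4 lanes, and lines naming no gene were left out (no feature, 32.23 to 38.52% of reads, and ambiguous, 0.62 to 0.77%). R 4.3.3 and edgeR 4.0.16 (TMM, filterByExpr, quasi-likelihood test, 6 libraries, replicates A and B) gave the tests, with limma 3.58.1 and DESeq2 1.42.0 as alternatives, after a check on simulated data. The common biological coefficient of variation was 0.0871, with 3 residual degrees of freedom. Replicate C was scaled to A and B and shown only. Symbols, coordinates and exon lengths are from GENCODE M21 (GRCm38). Collagens that passed the filter are named, those called with at least 10 CPM with full statistics. The members, gene lists and tests were chosen with earlier results of these data known.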

Additional observations from a re-analysis of the deposited data

How the results depend on the processing

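The number of called collagens stayed within 1.5 times in every alternative: in Leydig against Sertoli 20 to 27 higher and 10 to 12 lower, in Leydig against Interstitial 12 to 23 and 4 to 6, and in Interstitial against Sertoli 21 to 25 and 14 to 15. Of 1761 alternative values of the 126 log2 fold changes, 1641 kept direction and side of the threshold, 39 became called, 43 lost their call and 38 changed sign, all 38 for genes not called; the cause was not tested. Scaling by library size alone changed the sign in Leydig against Interstitial for Col3a1 (-0.019), Col6a2 (-0.026), Col7a1 (-0.043), Col8a2 (-0.055), Col16a1 (-0.046) and Col24a1 (-0.034), and in Interstitial against Sertoli for Col22a1 (0.121). With no filter on low counts Col4a1, Col5a3 and Col12a1 became called in Leydig against Sertoli, Col4a4 and Col15a1 in Leydig against Interstitial and Col6a1 in Interstitial against Sertoli. With all 9 libraries these and Col4a2, Col6a5, Col11a1, Col13a1, Col25a1 and Col28a1 did. Col5a2 in Leydig against Interstitial was 0.014 with RLE size factors, 0.014 with DESeq2 and 0.037 with a filter of 1 CPM. With all 9 libraries Col8a2 was -0.01 in Leydig against Interstitial and Col22a1 0.005 in Interstitial against Sertoli, where it was also 0.005 with no filter.

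Leaving out 1 library leaves a lone sample, assumed to vary like the other groups. Its values ran in Leydig against Sertoli from -0.027 to 0.314 for Col4a2, -0.152 to 1.474 for Col6a5 and -0.272 to 1.145 for Col28a1. In Leydig against Interstitial they ran from -0.028 to 0.206 for Col1a2, -0.053 to 0.121 for Col3a1, -0.085 to 0.074 for Col5a2, -0.094 to 0.155 for Col6a2, -0.034 to 0.07 for Col7a1, -0.124 to 0.13 for Col8a2, -0.141 to 0.158 for Col16a1, -0.125 to 0.178 for Col24a1 and -0.033 to 0.295 for Col26a1. In Interstitial against Sertoli they ran from -0.18 to 0.087 for Col22a1 and -1.296 to 0.12 for Col28a1.

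With the replicate letter as a block, 25 collagens were higher and 12 lower in Leydig against Sertoli, 20 and 5 in Leydig against Interstitial, and 24 and 14 in Interstitial against Sertoli. The deviations of A from B correlated across 18048 genes at 0.248 between Leydig and Interstitial, 0.018 between Leydig and Sertoli and 0.1 between Interstitial and Sertoli. The main fit left the letters out. Whether libraries of the same letter share a source was not tested, and the value for Leydig and Interstitial does not show that they do not. The block lost no call and added 5, namely Col5a3 (0.971, adjusted p = 0.041) and Col12a1 (-0.346, adjusted p = 0.0109) in Leydig against Sertoli, and Col4a4 (0.411, adjusted p = 0.0402), Col13a1 (0.284, adjusted p = 0.0466) and Col15a1 (0.314, adjusted p = 0.0382) in Leydig against Interstitial. The main fit had 2 pools per population and 3 residual degrees of freedom. Calls of 3 scarce genes were lost on leaving out some single libraries and in DESeq2. These were Col6a4 in Leydig against Interstitial (0.90), and Col6a5 (1.24) and Col8a1 (0.93) in Interstitial against Sertoli. The call of Col6a4 in Leydig against Sertoli (1.37) was lost only on leaving out some single libraries.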
